A study of Mus musculus with 5 samples.

Results

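Cycling monocyte progenitors were examined in the bone marrow of 5 C57BL/6J mice, as 523 of 29679 cells (1.76%). A barcode counted as a cell when it held at least 500 unique molecular identifiers (UMIs, the count of captured RNA molecules) of which at most 10% came from mitochondrial genes. A cell was a member when it had at least 1 UMI of Csf1r, at least 2 of F13a1 and Ly6c2 together, at least 2 of Mki67 and Top2a together, fewer than 5 of Elane and Ms4a3 together, and 0 of Ebf1 and of Siglech. These 9 genes chose the cells, so their levels are given only as a description. Every mouse was bought at 8 weeks of age, was not irradiated and received 1000 BCR-ABL1 pre-B acute lymphoblastic leukemia cells through the tail vein. One animal was killed right after the transfer (day 0), and single animals were killed on days 3, 6, 9 and 12. Marrow flushed from femurs and tibias was pooled with collagenase and DNase I digests of the crushed bones, red cells were lysed, and the cells were cryopreserved before droplet-based 3' single-cell RNA sequencing. The day 0 animal therefore also carried the transferred cells, no animal without leukemia cells was analysed here, and day and mouse cannot be told apart. No test between days was possible with 1 mouse per day. The libraries held between 33425695 and 43554233 UMIs.

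Monocytes arise in the marrow from granulocyte-monocyte progenitors by way of a proliferating progenitor that already expresses the receptor for colony-stimulating factor 1 (Csf1r) and the marker Ly6c2, and that leaves the cell cycle as it becomes a classical monocyte. The transcription factors Irf8 and Klf4 drive this lineage, and Ccr2 is the chemokine receptor by which its cells enter the blood. Proliferating cells make the genes of DNA replication and the replication-dependent histones in S phase, and the genes of the spindle, of cyclin B and of chromosome segregation in G2 and mitosis. Top2a and Mki67, which chose the cells, peak in the latter phases.

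The 67 members at day 0, 97 at day 3, 119 at day 6, 138 at day 9 and 102 at day 12 each came from a different animal, and no member barcode occurred in more than 1 library. Across all cells 494 of 29176 distinct barcodes occurred in more than 1 library. Members were deep cells, with a median of 11673 UMIs and a range of 1338 to 37723. The median of members in a library lay between 10227 and 13985 UMIs, against 5055.5 to 6734 in the non-cycling monocytes defined below.

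The label was first checked with 12 monocyte markers that the rule did not use. All 12 were detected, and their summed level in the members was between 163 and 211 UMIs per 10000 UMIs of the class over the 5 libraries. Most of this sum was Lyz2, the lysozyme gene, at 123 to 169 in the members. In T cells, which should lack them, the sum was between 15.1 and 33.3. These were cells with at least 2 UMIs of Cd3d, Cd3e and Cd3g, 0 of Csf1r, Mki67 and Top2a, and S100a8 and S100a9 below the limit given next, with a pooled median of 2553 UMIs. Ms4a6c, a membrane protein of monocytes, had a UMI in 87.6% to 91.0% of members against 6.20% to 15.0% of T cells. Irf8 had a UMI in 68.7% to 78.2% of members and Klf4 in 71.1% to 75.5%, against at most 11.3% and 12.4% of T cells. With every cell thinned to 3000 UMIs these shares were 79.7% to 84.4% against 9.26% to 13.3% for Ms4a6c, 42.0% to 50.9% against 5.56% to 13.1% for Irf8, and 39.0% to 49.0% against 2.80% to 16.7% for Klf4. Among genes of earlier progenitors, the stem cell factor receptor Kit was at 0.0122 to 0.050 UMIs per 10000 and Cd34 at 0.122 to 0.225. The primary granule genes of granulocyte-monocyte progenitors were detected in many members. Prtn3 was at 1.95 to 3.49 UMIs per 10000 and had a UMI in 58.2% to 81.2% of members against 7.86% to 12.7% of T cells, or in 19.7% to 47.8% against 4.76% to 11.2% at 3000 UMIs. Ctsg had a UMI in 39.2% to 48.6% of members and Mpo in 22.7% to 49.3%, against at most 8.36% and 10.2% of T cells. The 8 granulocyte-monocyte progenitor markers together stood at 3.75 to 6.82 UMIs per 10000 against 1.98 to 2.46 in T cells. Among other lineages the summed levels in the members were 0.0474 to 1.01 for 9 erythroid genes, 0.258 to 1.67 for 9 T and NK genes, 0 to 0.172 for 7 basophil and mast cell genes, 0.224 to 0.850 for 9 macrophage genes and 0 to 0.0812 for 6 megakaryocyte genes, while 9 B cell genes stood at 1.80 to 3.84, against 2.76 to 5.37 in T cells. The 10 conventional dendritic cell markers were at 1.61 to 7.48 against 0.534 to 5.60 in T cells, and the 8 plasmacytoid dendritic cell markers at 1.69 to 3.31 against 2.71 to 5.65. The 10 neutrophil precursor markers were at 207 to 251, against 51.1 to 77.6 in T cells. Only the 1370 of 1634 T cells below the S100a8/S100a9 limit were used, whereas no member was left out. This gap thus followed in part from the choice of cells. Pooled below that limit, these markers were at 48.6 in the members and 63.8 in T cells.

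The neutrophil precursor genes were held by a subset of the members. S100a8 and S100a9, the calprotectin genes that dominate the RNA of maturing neutrophils, summed to at least 400 UMIs per 10000 in 97 of 523 members (18.5%). Only 5 members lay between 300 and 500, so few cells depended on where that limit was set. From day 0 to day 12 the subset held 16, 21, 21, 26 and 13 cells. It had a median sum of 3222 against 115 in the other 426 members. The granule genes Camp, Ngp, Ltf and Lcn2 together reached 100 UMIs per 10000 in 90 of the 97 cells and in 0 of the 426. The monocyte genes went the other way. The sum of Ccr2, Fn1, Ms4a6c, Irf8 and Klf4 had a median of 28.8 UMIs per 10000 in the 426 cells and of 1.29 in the 97, of which 33 had none. The sum of all 12 monocyte markers, most of it Lyz2, set these groups apart far less. Pooled over the libraries it was 198 in the 426 cells and 157 in the 97. Among the rule's own genes, F13a1 was at 0 in 62 of the 97 cells and in 21 of the 426. Free RNA, measured in barcodes of at most 100 UMIs, held Ly6c2 at 14.4 to 22 and Csf1r at 0.386 to 0.544 UMIs per 10000, and the part of free RNA in the gating of these cells was not tested. All 22 members with a Scrublet doublet score above 0.25 belonged to the 97 cells. The data thus went against the label for these 97 cells, which are called S100a8/S100a9-high below, and results that rest on them are given with and without them.

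**Figure D1:**
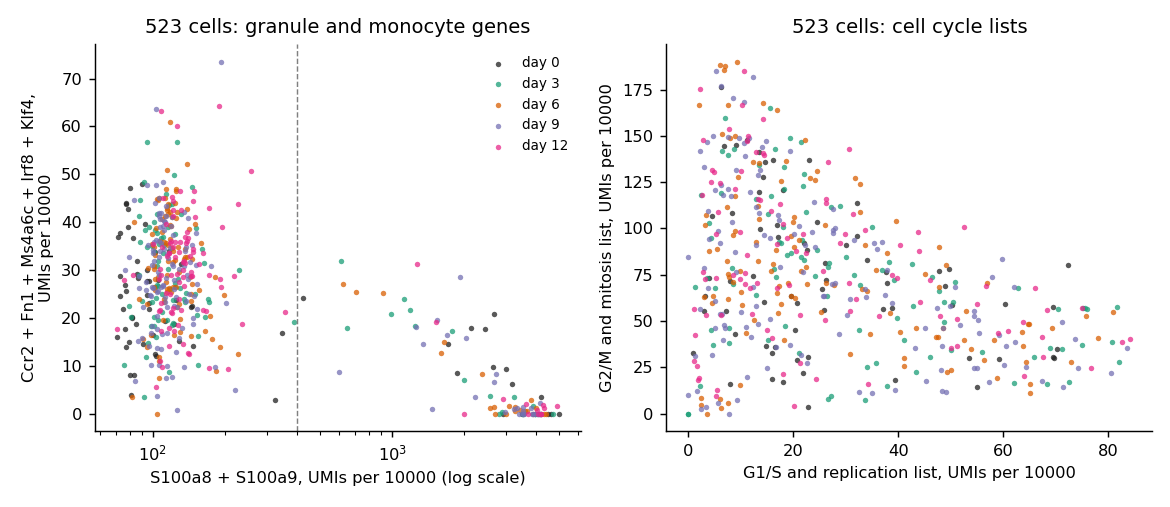
Each point is 1 of the 523 member cells, coloured by day. On the left, the x axis gives S100a8 plus S100a9 in UMIs per 10000 on a log scale and the y axis the sum of 5 monocyte genes, with a dashed line at 400, and most of the 97 cells to its right lie near 0 on the y axis. On the right, the summed G1/S list is plotted against the summed G2/M list, and the G1/S sum is the larger in 110 cells.

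The limits of the rule were then looked at from either side. The 77 members with exactly 2 UMIs of Mki67 and Top2a had 36.2 UMIs per 10000 of the G2/M and mitosis list and 20.3 of the G1/S list, whereas the 291 cells with 1 UMI had 15.9 and 11. The 35 members with 4 UMIs of Elane and Ms4a3 had Prtn3 at 4.19 and Fn1 at 3.14, and the 23 cells with 5 UMIs had 5.44 and 2.69. A single UMI of Csf1r admitted 314 of the 523 members (60.0%).

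The members made up 1.07% of the cells at day 0 (exact binomial 95% confidence interval 0.831% to 1.36%), 1.99% at day 3 (1.62% to 2.42%), 1.97% at day 6 (1.63% to 2.35%), 1.99% at day 9 (1.67% to 2.34%) and 1.83% at day 12 (1.5% to 2.22%). The day 0 interval lay below those of the 4 later animals, which overlapped each other. The cycling fraction, that is the members among all cells that passed the monocyte gates, was 13.9% at day 0, 18.0% at day 3, 19.3% at day 6, 22.7% at day 9 and 21.8% at day 12. Since a rule of minimum UMIs admits more cells at greater depth, every cell was also thinned at random to 3000 UMIs and the rule applied again. Cells below that depth were left out, among them 1, 1, 1, 0 and 2 members. The shares were then 0.620%, 0.742%, 0.792%, 0.748% and 0.579% in the order of the days, from 20, 24, 28, 30 and 19 cells, and the cycling fractions 7.72%, 8.51%, 8.48%, 8.90% and 7.45%. Day 0 was then below days 3, 6 and 9 and above day 12 in both measures, on these few cells. Without the S100a8/S100a9-high cells the unthinned shares were 0.815%, 1.56%, 1.62%, 1.61% and 1.60%. The unthinned cycling fractions without them were 13.1%, 19.3%, 21.5%, 24.8% and 25.5%. Intervals cover counting error only, with no measure of the differences between mice.

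**Figure D2:**
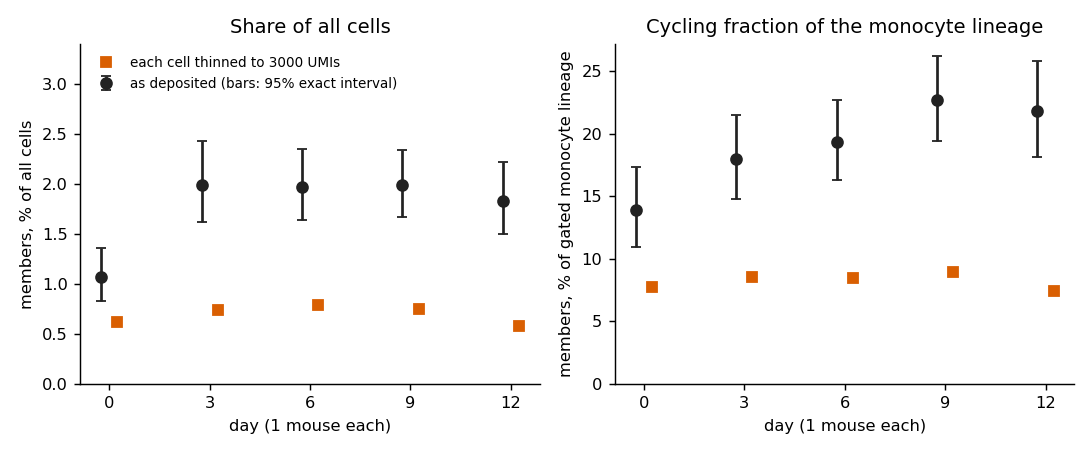
Share of members among all cells (left) and among the gated monocyte lineage (right), in percent, by day with 1 mouse per day. Circles with bars are the values as deposited with exact 95% intervals and squares are the values after each cell was thinned to 3000 UMIs. The circles are at 1.07% on day 0 and 1.99% on day 3, and the squares stay between 0.579% and 0.792%.

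The members differed widely in their sums of cell cycle genes. A list of 40 genes of G1/S and DNA replication summed to a median of 20.4 UMIs per 10000 per cell, with 4.67 and 60.9 at the 10th and 90th percentiles. A list of 58 G2/M and mitosis genes (56 of them in the table), without Mki67 and Top2a, had a median of 70.1 with 21.9 and 139 at those percentiles, and 23 replication-dependent histone genes had a median of 16.0 with 0.885 and 40.1. The G1/S sum exceeded the G2/M sum in 110 of 523 members (21.0%). The lists differ in size and level, so this comparison does not place a cell in a phase. Even in the non-cycling monocytes the G2/M sum was the larger in 54.0% to 63.0% of cells per library. Between libraries the pooled G2/M level was 71.9, 72.1, 80.8, 75.1 and 80.6 UMIs per 10000 in the order of the days, and that of G1/S 25.8, 32.0, 27.4, 25.7 and 26.3. The most abundant G2/M members were Cks2, a subunit that binds cyclin-dependent kinases, Ube2c, the ubiquitin-conjugating enzyme of the anaphase-promoting complex, and Birc5, encoding survivin. In the order of the days Ube2c stood at 5.68, 5.11, 7.61, 6.31 and 6.32 UMIs per 10000, and Birc5 at 5.35, 4.67, 5.72, 5.51 and 6.83.

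Promoters of genes of these lists are shown because short sequence words are known for such genes. Whether the genes vary together between cells was not tested. The word TTTGAA, the core of the cell cycle genes homology region that binds the MuvB complex, and CCAAT, the site of the factor NF-Y, are known for G2/M genes, and the words TTTGGCGC and TTTCCCGC for sites of E2F factors in genes of DNA replication. RefSeq promoter windows of the GRCm38.p6 build, from 250 bases before to 50 bases after the start of a gene, were found by symbol for 47 of the 58 G2/M genes (50 windows), for 32 of the 40 G1/S genes (39 windows) and for 0 of the 23 histone genes. On either strand, TTTGAA was in 76% of the G2/M windows, 12.8% of the G1/S windows and 17.9% of all 32851 windows. CCAAT was in 74%, 59.0% and 37.4%, and both together in 64%, 10.3% and 6.95%. TTTGGCGC or TTTCCCGC was in 6% of the G2/M windows, 23.1% of the G1/S windows and 1.56% of all windows. A match is a description of the letters, not evidence that a factor binds. The windows of 3 G2/M genes with both words are printed below in the direction of the gene. They were picked by highest level in the members, from a choice that did not cover every chromosome. TTTGAA and CCAAT on either strand are in capitals, and CCAAT matches on opposite strands may overlap. Mcm7 and Mcm5, which encode subunits of the replicative helicase, are 2 G1/S genes picked in the same way. Their capitals mark TTTGGCGC or TTTCCCGC on either strand.
Ube2c (chr2:164769679-164769978, plus strand): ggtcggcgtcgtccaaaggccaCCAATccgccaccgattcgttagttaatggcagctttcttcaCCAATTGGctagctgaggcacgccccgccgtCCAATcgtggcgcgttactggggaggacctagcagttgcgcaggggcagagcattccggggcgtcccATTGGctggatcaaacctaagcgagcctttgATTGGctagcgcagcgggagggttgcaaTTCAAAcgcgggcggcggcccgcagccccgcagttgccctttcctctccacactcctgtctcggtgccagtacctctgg
Cks1b (chr3:89418242-89418541, minus strand): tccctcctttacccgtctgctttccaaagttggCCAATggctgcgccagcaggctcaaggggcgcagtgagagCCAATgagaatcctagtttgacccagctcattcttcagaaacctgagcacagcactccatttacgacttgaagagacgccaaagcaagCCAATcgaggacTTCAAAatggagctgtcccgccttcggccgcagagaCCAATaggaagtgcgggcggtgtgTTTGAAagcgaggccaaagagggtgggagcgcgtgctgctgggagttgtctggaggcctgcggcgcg
Cenpa (chr5:30666636-30666935, plus strand): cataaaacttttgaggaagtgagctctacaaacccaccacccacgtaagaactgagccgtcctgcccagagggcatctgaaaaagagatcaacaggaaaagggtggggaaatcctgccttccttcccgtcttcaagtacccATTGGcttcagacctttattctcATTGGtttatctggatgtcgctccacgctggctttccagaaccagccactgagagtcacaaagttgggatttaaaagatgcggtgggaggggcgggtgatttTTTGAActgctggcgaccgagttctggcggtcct
Mcm7 (chr5:138171834-138172133, minus strand): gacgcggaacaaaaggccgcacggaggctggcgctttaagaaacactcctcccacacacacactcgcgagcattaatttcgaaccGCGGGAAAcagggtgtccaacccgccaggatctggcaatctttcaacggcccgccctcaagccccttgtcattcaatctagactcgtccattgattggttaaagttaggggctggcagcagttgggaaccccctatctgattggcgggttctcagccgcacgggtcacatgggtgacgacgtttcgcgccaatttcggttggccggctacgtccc
Mcm5 (chr8:75109259-75109558, plus strand): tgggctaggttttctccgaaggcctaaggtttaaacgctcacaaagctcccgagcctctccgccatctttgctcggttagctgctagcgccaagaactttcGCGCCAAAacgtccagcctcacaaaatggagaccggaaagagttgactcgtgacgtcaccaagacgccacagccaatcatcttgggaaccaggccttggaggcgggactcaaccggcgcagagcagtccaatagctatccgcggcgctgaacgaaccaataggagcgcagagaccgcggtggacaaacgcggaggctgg

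The cycling progenitors were compared with 1899 non-cycling monocytes of the same 5 animals, which passed the same gates with 0 UMIs of Mki67 and Top2a. At the lower depth of these cells, 0 UMIs of both genes does not show that a cell had left the cycle. Counts were summed per animal and class and tested with edgeR's quasi-likelihood test with the animal as a block, and a gene was called at a Benjamini-Hochberg adjusted p under 0.05 and a fold of at least 1.5. Values are means ± SD of UMIs per 10000 over the 5 animals unless stated otherwise. Of 8074 genes tested, 1167 were higher (14.5%) and 1094 lower (13.5%) in the cycling progenitors. Without the S100a8/S100a9-high cells of both classes, which made up 16.5% to 29.6% of the non-cycling cells per animal, 1119 (14.7%) and 1000 (13.1%) of 7633 genes were called. Of the first set of higher genes 88.3% were called again, which were 92.1% of the second set, and of the lower genes 82.9%, which were 90.7% of the second set. Genes of the cell cycle followed the choice of cells and carry no test. All 56 G2/M genes measured were higher, with a median log2 fold change of 4.12, as were 38 of 38 G1/S genes with a median of 2.45, of which 22 and 4 passed the count filter only through the progenitors. Among genes at 1 UMI per 10000 or more in the progenitors, the largest differences were those of Nusap1, Hist1h2ap, Hist1h2ae, Ccna2, Cdk1, Ccnb1, 2810417H13Rik and Cenpf.

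Genes of growth were higher in the cycling cells. Of 42 measured genes of the nucleolus and of MYC growth targets, 19 rose and 0 fell, with a median log2 fold change of 0.43 against -0.02 over all genes. Ran, the GTPase of nuclear transport, stood at 7.26, 7.37, 7.77, 7.47 and 7.83 UMIs per 10000 in the progenitors in the order of the days and at 2.57, 2.42, 2.15, 1.87 and 2.25 in the non-cycling monocytes. The groups did not overlap and Ran was 3.16-fold higher (edgeR adjusted p = 1.43e-19, higher in 5 of 5 animals). Hnrnpa1, a splicing regulator, rose 1.85-fold (4.48 ± 0.298 against 2.28 ± 0.25, edgeR adjusted p = 3.74e-14). Npm1, encoding nucleophosmin, had a log2 fold change of 0.43, below the fold required. Myc itself was not among the genes tested, at a mean of 0.0628 UMIs per 10000 in the progenitors. Of 75 nuclear genes of the respiratory chain 1 rose, Atp5g2, and 0 fell. Xist, the RNA that coats the inactive X chromosome, was at 10.3 to 13.8 UMIs per 10000 in the progenitors of the 5 animals and at 5.22 to 6.71 in their non-cycling monocytes, a 1.92-fold difference (edgeR adjusted p = 3.91e-17).

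Among 32 measured transcription factors of the myeloid and progenitor list, 3 rose and 11 fell. Irf8 stood at 2.68, 3.43, 3.02, 3.10 and 2.97 in the progenitors and at 1.58, 1.20, 1.49, 1.31 and 1.24 in the non-cycling monocytes. The values did not overlap, and the fold was 2.1 (edgeR adjusted p = 5.83e-13), and the log2 fold change 1.07, or 1.11 without the S100a8/S100a9-high cells. Myb, a factor of progenitors, rose 2.31-fold from a low level (0.256 ± 0.0528 against 0.0986 ± 0.0348, edgeR adjusted p = 3.61e-06). Klf4 was at 1.75 to 2.47 in the progenitors and 1.56 to 2.75 in the non-cycling monocytes, with overlapping values and a log2 fold change of -0.07 (edgeR adjusted p = 0.451). Klf2, a factor of quiescent leukocytes that was also in the immediate-early list, fell by 1.08 on the log2 scale, and its level ran from 1.99 to 5.44 over the progenitors of the 5 animals. Spi1, encoding PU.1, had a log2 fold change of -0.50, short of the fold required.

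The genes of mature monocytes were lower in the cycling cells. Of 55 measured effector genes 37 fell and 2 rose, with a median log2 fold change of -0.84. Lyz2, the lysozyme gene, stood at 155, 152, 169, 123 and 153 in the progenitors against 332, 289, 314, 256 and 277 in the non-cycling monocytes, and it fell by 1.06 on the log2 scale (edgeR adjusted p = 3.91e-22, lower in 5 of 5 animals). Tyrobp, an adaptor of activating receptors, was at 27.9 ± 1.44 against 46.9 ± 1.97. Plac8 and S100a6 fell by 0.77 and 0.87. Spn, encoding CD43, was an exception and rose, with a log2 fold change of 1.13. Fn1, the fibronectin gene, was at 4.03 to 7.04 in the progenitors and 5.84 to 6.94 in the non-cycling cells, and its log2 fold change of -0.20 was below the fold required. Of 32 measured receptors 17 fell and 0 rose. Ccr2 was at 2.56, 4.03, 4.05, 3.56 and 4.25 in the progenitors and at 5.86, 6.03, 6.74, 6.23 and 5.48 in the non-cycling monocytes, with no overlap (log2 fold change -0.82, edgeR adjusted p = 1.35e-11). Ifngr1, a chain of the interferon-gamma receptor, fell by 0.75 on the log2 scale. Csf2ra, a chain of the GM-CSF receptor, was at 1.52 to 2.30 against 1.54 to 1.97, with a log2 fold change of -0.02 (edgeR adjusted p = 0.870). Cxcr4, the marrow homing receptor, had a log2 fold change of 0.48, and of 0.89 without the S100a8/S100a9-high cells, where it was called higher.

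Of 47 interferon-stimulated genes that passed the count filter, 46 were lower in the progenitors. Of the 47, 8 passed only through the non-cycling monocytes, with fewer than 10 counts in every sum of progenitors, and such genes could only be lower. At a mean of at least 0.5 UMIs per 10000 over both classes, 19 of 20 genes of the list were lower, against 14.8% of all 2200 genes at that level. Ifitm3, which restricts the entry of viruses, was at 23.6 ± 1.73 in the progenitors and 48.2 ± 2.29 in the non-cycling monocytes (log2 fold change -1.12, edgeR adjusted p = 5.75e-21). Ifi27l2a stood at 5.65, 14, 8.0, 8.41 and 9.46 against 17.4, 23.9, 18.3, 18.2 and 20.1. Ly6e, the remaining member, had a log2 fold change of -0.15. Of 17 MHC class I genes 5 fell and 0 rose, among them B2m (27.8 ± 0.564 against 41.3 ± 1.41) and H2-D1, which fell by 0.66 and 0.75 on the log2 scale. Of 7 measured MHC class II genes 5 fell. Cd74, the invariant chain, was at 0.845, 3.75, 3.29, 3.04 and 2.82 in the progenitors against 11.7, 17.4, 16.9, 17.2 and 9.43. These class II counts were held by few cells: 196 of the 1899 non-cycling monocytes (10.3%) reached 20 UMIs per 10000 of H2-Aa, H2-Ab1, H2-Eb1 and Cd74 together and carried 90.6% of the counts, and 16 of the 523 progenitors (3.06%) carried 69.1%. The 16 progenitors had Cd209a, a lectin of monocyte-derived and dendritic cells, at 4.11 UMIs per 10000 against 0.527 in the others, Flt3 at 0.644 against 0.131 and the B cell gene Cd79a at 0.0990 against 0.135. Flt3 rested on 13 UMIs and Batf3 on 10. Of other dendritic cell markers, Zbtb46 and Xcr1 had 0 UMIs in the 16 cells, Itgax 1 and Clec9a 3. Ly6c2, F13a1, Fn1 and Lyz2 were lower in them, at 8.81, 1.63, 2.72 and 99.6 against 28.5, 6.0, 6.19 and 151. Ccr2 was not lower, at 4.75 against 3.75, nor was Irf8, at 3.32 against 3.07. These cells were looked at after the values had been seen, and they carry no test. The largest falls of single genes were Apoe (1.03 ± 0.426 against 8.43 ± 2.80), Sirpb1c, Gngt2, Sirpb1b, H2-Eb1, Cd74, Gm9733 and Klra2, among genes at 1 UMI per 10000 or more in the higher class.

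Immediate-early genes, the rapidly induced targets of growth and stress signals, fell in 17 of 28 measured cases and rose in 0. Dusp1, a phosphatase of MAP kinases, fell by 0.97 on the log2 scale. Fos and Jun had log2 fold changes of -0.46 and -0.38, short of the fold required. The antiproliferative gene Btg1 fell by 1.13, and the survival gene Mcl1 by 0.94, whereas Bcl2 rose, with a log2 fold change of 1.04. Of 7 measured markers of granulocyte-monocyte progenitors 6 rose. Prtn3, the proteinase 3 gene, stood at 2.65, 1.95, 2.66, 3.49 and 2.27 in the progenitors and at 0.721 to 1.07 in the non-cycling monocytes, 2.67-fold higher (edgeR adjusted p = 3.56e-16). Ctsg, encoding cathepsin G, rose 3.00-fold, Cd34 3.19-fold and Mpo 1.63-fold, each to at most 1.37 UMIs per 10000 in a library of progenitors. Mpo was higher in 4 of 5 animals, and at day 3 it was lower, at 0.25 against 0.348. Of 18 genes of secondary and tertiary granules 7 fell, and 1 of 17 fell without the S100a8/S100a9-high cells. Retnlg, a resistin-like gene of mature neutrophils, was at 15.0 ± 3.45 against 56.8 ± 19.0 with these cells and at 9.19 ± 2.86 against 10.3 ± 3.46 without them.

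**Figure D3:**
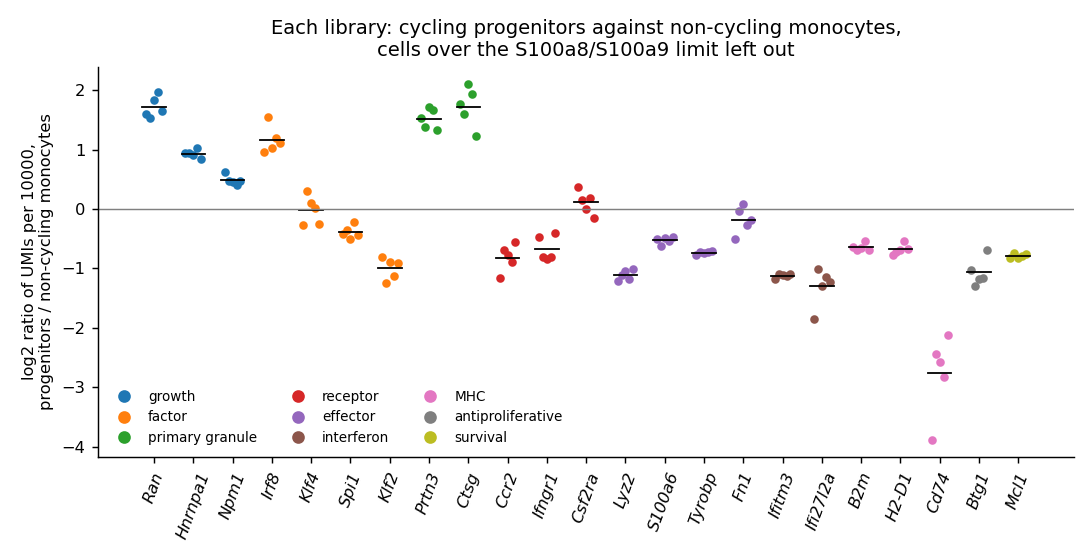
For 23 genes, grouped by colour, each point is the log2 ratio of UMIs per 10000 of cycling progenitors to non-cycling monocytes in 1 of the 5 animals, with S100a8/S100a9-high cells left out, and the black lines are the means. Ran, Irf8, Prtn3 and Ctsg lie above 0 in all animals, and Lyz2, Ifitm3, Ccr2 and Cd74 below 0, while Klf4, Csf2ra and Fn1 have points on either side of 0.

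The second comparison set the members against another cycling class, to describe the lineage side at the same minimum of Mki67 and Top2a UMIs. It held 1083 cells with at least 2 UMIs of Mki67 and Top2a, at least 5 of Elane and Ms4a3, and 0 of Ebf1 and Siglech, of which 153, 98, 115, 170 and 173 per animal were S100a8/S100a9-high. The gates of Csf1r, F13a1, Ly6c2, Elane and Ms4a3 differ between these classes, so monocyte genes and primary granule genes follow the choice of cells and are given with no test. Of 8487 genes 999 were higher (11.8%) and 914 lower (10.8%) in the monocyte progenitors by the same call. Without the S100a8/S100a9-high cells 926 (12.6%) and 884 (12%) of 7340 genes were called. Of the first set of higher genes 61.5% were called again, which were 66.3% of the second set, and of the lower genes only 46.3%, which were 47.9% of the second set.

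Among higher genes at 1 UMI per 10000 or more in the monocyte progenitors, Fn1 had the largest difference, at 4.03, 5.87, 7.04, 6.06 and 6.36 UMIs per 10000 in the monocyte progenitors and 0.248, 0.726, 0.888, 0.565 and 0.327 in the Elane/Ms4a3-high class. It was followed by Ifi27l2a, Ms4a4c, Id3, an inhibitor of helix-loop-helix factors, S100a4, Ccdc109b, Ahnak and Cdkn1a, the gene of the cell cycle inhibitor p21. All 8 were also called higher without the S100a8/S100a9-high cells, where S100a4 stood at 16.7 ± 1.11 against 4.46 ± 0.774 and Cdkn1a at 1.60 ± 0.545 against 0.438 ± 0.0757. Ccr2 was at 3.69 ± 0.680 against 0.687 ± 0.351, and Klf4 at 2.15 ± 0.263 against 0.529 ± 0.114. Their log2 fold changes were 2.14 and 1.67 with all cells, and 1.44 and 0.91 without the S100a8/S100a9-high cells. Irf8 depended on the subset: its log2 fold change was 0.98 with all cells and 0.25 without the S100a8/S100a9-high cells, where it stood at 3.33, 4.25, 3.56, 3.67 and 3.42 against 2.38, 2.77, 3.53, 2.69 and 2.66. Among the lower genes were Mpo (0.757 ± 0.344 against 13.1 ± 2.07), Prtn3 (2.60 ± 0.574 against 19.4 ± 2.30) and Ctsg (1.05 ± 0.227 against 9.25 ± 2.09), together with Mcpt8, a protease of basophils, Nkg7, Fcnb, Cd63 and Mt1. In the Elane/Ms4a3-high class Mcpt8 varied widely, at 0.0314, 2.26, 1.05, 1.93 and 0.0879 in the order of the days. Fcnb fell by 3.11 on the log2 scale with all cells and by 0.925 without the S100a8/S100a9-high cells. Kit and Cd34 were at 0.0289 ± 0.0163 and 0.174 ± 0.0414 against 0.167 ± 0.0490 and 0.270 ± 0.0849.

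Growth genes were lower in the monocyte progenitors than in the Elane/Ms4a3-high class. Of 45 nucleolar and MYC target genes 19 fell and 0 rose with all cells, and 35 fell and 0 rose without the S100a8/S100a9-high cells, with median log2 fold changes of -0.48 and -0.95 against 0.00 and 0.02 over all genes. Npm1 stood, without that subset, at 9.64, 7.68, 8.19, 7.76 and 7.53 against 14.8, 12.3, 11.3, 12.3 and 16.0 (log2 fold change -0.83, edgeR adjusted p = 5.45e-10). The chaperone gene Calr, encoding calreticulin of the endoplasmic reticulum, fell by 1.25 on the log2 scale with all cells and by 1.90 without the subset. Of 24 heat-shock and chaperone genes 13 fell without the subset and 3 of 25 with it. Myb fell by 1.81 and by 2.56. Of 56 G2/M genes 12 were higher with all cells and 38 without the subset, and 0 were lower. Birc5 was, without the subset, at 6.09 ± 0.680 against 3.21 ± 0.295, a log2 fold change of 0.80. Of 40 G1/S genes 6 were lower and 0 higher without the subset, and Dut, the dUTPase gene, was at 2.55 ± 0.141 against 4.01 ± 0.358. The median depth of the Elane/Ms4a3-high cells was between 14519 and 17286.5 UMIs, above that of the members. A fixed minimum of Mki67 and Top2a UMIs admits lower levels of these genes in deeper cells. Pooled without the subset, Mki67 was at 2.43 against 1.32 and Top2a at 4.61 against 2.61. The cell cycle genes can therefore follow the choice of cells here too, and they are given with no test. Of 28 immediate-early genes 11 rose, among them the monocyte factor Klf4, and 1 fell, which was Myc. Without the subset 16 of 27 rose and 3 fell, which were Myc, Egr1 and Dusp2. Nr4a1, an orphan nuclear receptor, rose 4.36-fold (0.709 ± 0.169 against 0.128 ± 0.0487, edgeR adjusted p = 3.61e-10). Camp and Chil3 depended on the subset. Camp was at 115 ± 12.5 against 381 ± 51.5 with all cells, and at 17 ± 1.89 against 16.1 ± 1.17 without the subset. Chil3, a chitinase-like gene of neutrophils and monocytes, had a log2 fold change of -1.25 with all cells and of 1.14 without the subset.

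**Figure D4:**
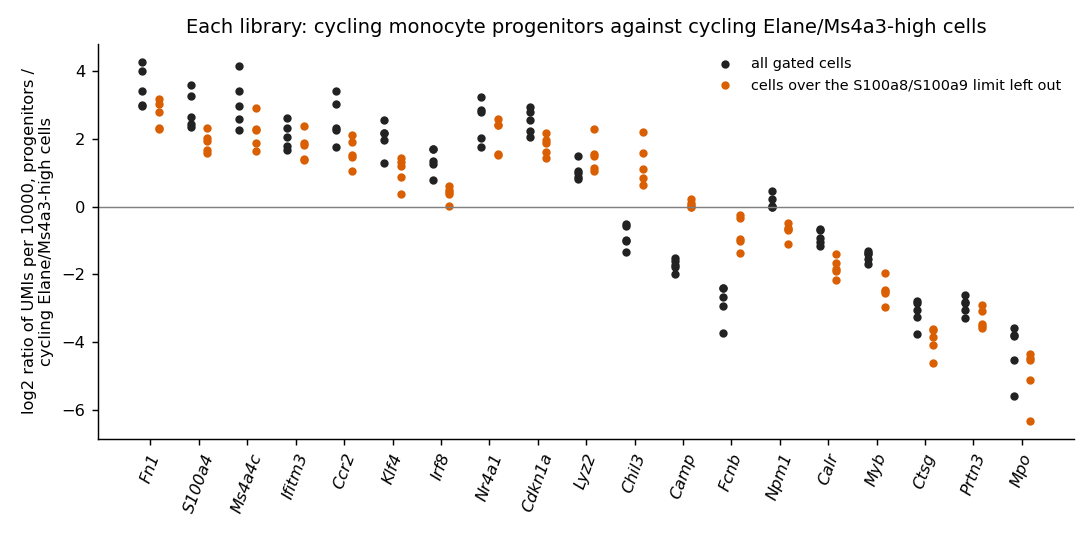
For 19 genes, points are the log2 ratios of UMIs per 10000 of monocyte progenitors to cycling Elane/Ms4a3-high cells in the 5 animals, in black with all gated cells and in orange without S100a8/S100a9-high cells. Fn1, S100a4 and Cdkn1a lie above 0 and Mpo, Prtn3 and Ctsg below 0 in both, whereas Chil3 lies below 0 in black and above 0 in orange.

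Within the 426 members outside the S100a8/S100a9-high subset, levels were also set against the UMIs of Elane and Ms4a3, which are genes of the rule. Pooled over the libraries, Fn1 was at 8.0 UMIs per 10000 in the 187 cells with 0 UMIs of both genes, 7.60 in the 125 with 1 and 5.45 in the 114 with 2 to 4, and Ccr2 was at 4.89, 4.16 and 3.80. Prtn3 was at 2.60, 2.66 and 4.14 and Ctsg at 1.0, 1.0 and 1.69, so both differed only in the cells with 2 to 4. Other monocyte genes did not follow Fn1 and Ccr2 step by step, with Ms4a6c at 10.9, 11.2 and 9.97 and Lyz2 at 153.5, 159.6 and 144.6. Irf8 was at 3.53, 3.51 and 4.03. The groups had median depths of 11240, 10970 and 12360 UMIs, and they are pooled over animals with no test.

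Between days, folds of the members against the day 0 animal were taken for genes with at least 50 UMIs summed over both animals, with exact intervals for the ratio of counts that cover counting error only. Past 2-fold higher were 99 of 4083 genes at day 3 (2.42%), 118 of 4524 at day 6 (2.61%), 115 of 4459 at day 9 (2.58%) and 60 of 3696 at day 12 (1.62%), and past 2-fold lower 66 (1.62%), 53 (1.17%), 59 (1.32%) and 31 (0.839%). With TMM scaling in place of the total UMIs the higher and lower genes were 65 and 79, 94 and 69, 91 and 66, and 39 and 39. All 4 comparisons share the day 0 animal.

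Immediate-early genes were lower at days 3, 6 and 9 than at day 0. Past 2-fold lower were 7 of 24 measured genes of the list at day 3, 6 of 25 at day 6, 7 of 24 at day 9 and 2 of 24 at day 12, and 0 were past 2-fold higher, with median log2 folds of -0.83, -0.81, -0.79 and -0.46 against 0.06, 0.09, 0.04 and 0.07 over all genes measured. Fos, a subunit of the AP-1 factor, stood at 20.4, 8.82, 9.66, 9.02 and 18.1 UMIs per 10000 in the order of the days. Dusp1 stood at 7.63, 2.42, 2.72, 2.84 and 5.98, and Atf3, a stress-induced factor, at 2.27, 0.234, 0.464, 0.256 and 1.25. Each was high at days 0 and 12 and low in between. At day 3 the fold of Atf3 was 0.103 (95% interval 0.0675 to 0.153), and it was 0.105 without the S100a8/S100a9-high cells. The same genes followed this order outside the members: Fos was at 26.2, 11.7, 11.1, 14.1 and 21.3 in non-cycling monocytes, at 4.86, 1.58, 2.24, 2.64 and 5.31 in T cells, and at 16.8, 9.80, 11, 10.8 and 16.3 in free RNA. Their part in the result was not tested. The inflammatory genes Cxcl2, Il1b and Ccl2 were also highest at day 0, at 2.16, 2.60 and 1.0, but 45.1%, 71.1% and 56.6% of these counts came from 3 cells each. Cd14, the endotoxin co-receptor, was at 2.39 at day 0 and at 0.593 to 1.18 later, and Hmox1, encoding heme oxygenase, at 0.805 against 0.195 to 0.293 later.

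Interferon-stimulated genes stood higher at day 3, when 6 of 20 measured genes were past 2-fold higher and 0 lower, with a median log2 fold of 0.89, against 1 or 2 genes at the later days with medians of 0.28, 0.38 and 0.35. Ifi27l2a was at 5.65, 14, 8.0, 8.41 and 9.46, 2.47-fold higher at day 3 (2.22 to 2.75) and 2.55-fold without the S100a8/S100a9-high cells, while in non-cycling monocytes the fold was 1.37. Ly6e was at 8.45, 15.6, 14.9, 13.1 and 10.1 in the progenitors, at 10.6, 15.4, 15.1, 12.9 and 10.00 in the non-cycling monocytes and at 5.85, 9.08, 10.3, 8.0 and 4.31 in free RNA. Cx3cr1, the fractalkine receptor, was 2.37-fold, 2.68-fold and 2.18-fold higher at days 6, 9 and 12.

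MHC class II genes were the list with the highest median fold on each later day, at 2.14, 2.01, 1.90 and 1.74 on the log2 scale, and their counts rested on few cells. H2-Aa stood at 0.158, 1.32, 1.17, 0.937 and 1.06 UMIs per 10000 in the order of the days, an 8.33-fold difference at day 3 (4.64 to 16.4). Of the 858 class II UMIs at day 3, 643 lay in 3 of the 97 cells. At days 6, 9 and 12, 4 of 119, 4 of 138 and 5 of 102 cells held 67.9%, 64.6% and 82.6% of these UMIs, and 0 of the 67 cells at day 0 reached 20 UMIs per 10000. For the share of such cells, 0 of 67 allows up to 4.48% by 3 cells of the total, and up to 5.36% by the exact binomial interval. In the remaining cells the sum of the 4 genes was 1.37, 1.74, 2.04, 2.03 and 0.940 UMIs per 10000. Klra4 was likewise set by 1 cell, with 55 of its 57 UMIs at day 6. Igkc, an immunoglobulin gene of B and plasma cells, was at 0.475, 0.546, 2.77, 1.55 and 0.227 in the members and at 9.88, 8.11, 30.8, 20.2 and 4.07 in free RNA, highest on day 6 and then day 9 in both. Igha was at 0 UMIs at day 0 and at 98 UMIs at day 9, with 6.02 UMIs per 10000 in free RNA at day 9.

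Histone genes went with the day in part. Hist1h2ae stood at 5.04, 1.54, 1.65, 1.65 and 5.57 UMIs per 10000, and at 2.75, 0.872, 1.01, 1.18 and 3.02 in the Elane/Ms4a3-high class. Hist1h2ap, which had a higher level, went the other way in the members, at 7.156, 10.14, 12.49, 12.75 and 8.659. Past 2-fold lower at days 3, 6, 9 and 12 were 3 of 10, 5 of 9, 2 of 10 and 0 of 12 histone genes measured, and 0 were past 2-fold higher. The G1/S list had 0 genes past 2-fold in either direction on any day. Of the G2/M list 3 of 54, 3 of 55, 3 of 55 and 1 of 53 genes measured were past 2-fold higher and 0 lower. Over all genes measured 2.42%, 2.61%, 2.58% and 1.62% were past 2-fold higher, so these few genes are no result about the list. Among them was Kif20a, a mitotic kinesin, at 2.15-fold to 2.85-fold. The lists of glycolysis genes and of respiratory chain genes had 0 genes past 2-fold on every later day.

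**Figure D5:**
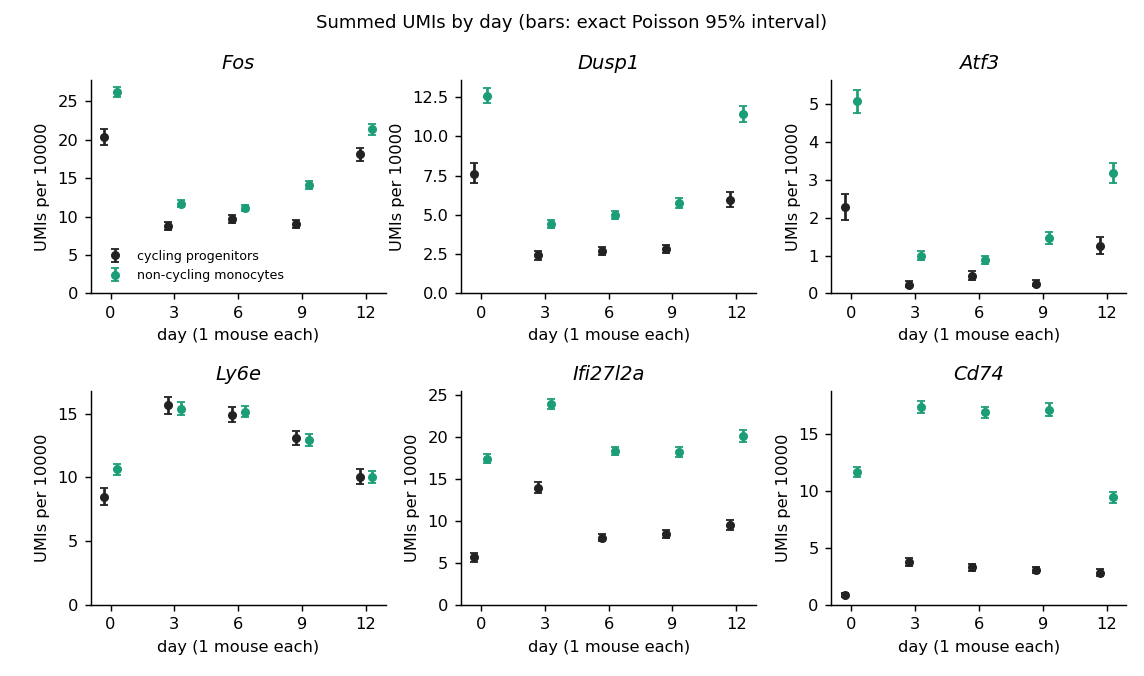
UMIs per 10000 of 6 genes by day, summed over the cycling progenitors (black) and the non-cycling monocytes (green) of 1 mouse per day, with exact Poisson 95% intervals of the counts. Fos, Dusp1 and Atf3 are lowest at days 3 to 9 in both classes, Ly6e and Ifi27l2a are highest at day 3, and Cd74 is below the non-cycling monocytes on every day.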

How the data were processed

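The authors deposited unfiltered matrices of UMI counts from droplet 3' single-cell RNA sequencing of 5 libraries, 1 mouse each, with 28692 genes and 737280 barcodes per library. Reads had been processed with Cell Ranger, per the labels, against the mm10 build. The annotation used for these matrices is not given in the sources used here. Here, barcodes with at least 500 UMIs and at most 10% mitochondrial UMIs were kept, and the rule of the report was applied to raw counts. The members and the gene lists were chosen with earlier results of these data known.

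For each comparison of classes, counts were summed per mouse and class. Genes with at least 10 counts in at least 5 of the 10 sums were tested with edgeR 4.0.16 (R 4.3.3, quasi-likelihood test, TMM factors, mouse as block), leaving out the 9 genes of the rule and 13 mitochondrial genes. Both sums of a pair came from the same animal, so the block is given by the design. The block takes out differences between mice that both classes share. P-values set the class difference within a mouse against how it varies over these 5 mice, which also differ in day. Adjusted p-values are Benjamini-Hochberg values, and the steps were tested on simulated data. Days were compared by fold only, since each day had 1 library of 33425695 to 43554233 UMIs, and exact intervals cover counting error only. Classes were compared as UMIs per 10000 UMIs of the class.

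Doublets were scored with Scrublet (scanpy 1.11.5) and not removed. Its automatic threshold marked under 0.1% of cells in 4 of 5 libraries, so it was taken not to have worked there, and a score of 0.25 was used instead in an alternative. Named genes are the 8 largest and 8 smallest log2 fold changes among called genes at 1 UMI per 10000 or more in the higher class, the 4 largest and 4 smallest folds per later day, in each list the 4 members of highest level and those of largest and smallest change, and a fixed set of lineage genes. Genes named beyond these were chosen after their values were seen. Alternatives were DESeq2 1.42.0, other filters, gates, depths and scalings, no block, and leaving out each mouse.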

Additional observations from a re-analysis of the deposited data

How the results depend on the processing

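The counts of genes called in both class comparisons stayed within 1.5 times under every alternative run. Leaving out each mouse gave 1103 to 1229 higher and 1061 to 1111 lower genes against non-cycling monocytes, and 916 to 1068 and 832 to 925 against Elane/Ms4a3-high cells. Without the replicate block, that is without pairing the sums of a mouse, 1141 and 1035, and 964 and 866 genes were called. The shares of members depended on depth and gates. Thinned to 3000 UMIs they were 0.620%, 0.742%, 0.792%, 0.748% and 0.579%, and the cycling fractions 7.72%, 8.51%, 8.48%, 8.90% and 7.45%. With at least 3 UMIs of Mki67 and Top2a the share was 1.63% and the fraction 18.6% at day 9, and the fraction 17.9% at day 12. Counts of genes past 2-fold between days fell, with a minimum of 100 summed counts, to 27, 26, 28 and 12 higher and 30, 25, 27 and 10 lower, and with thinned members to 18, 22, 20 and 17 higher and 27, 21, 31 and 10 lower. With TMM scaling 65 genes were higher at day 3 and 39 at day 12. The alternative without S100a8/S100a9-high cells was chosen after seeing the data, as was the removal of cells with a Scrublet score above 0.25. Without S100a8/S100a9-high cells the shares at days 0, 3, 6 and 9 were 0.815%, 1.56%, 1.62% and 1.61%, and against Elane/Ms4a3-high cells Chil3 and Hp changed direction, with log2 fold changes of 1.14 and 0.11. Among members with 0 UMIs of Elane and Ms4a3, Ngp changed direction against non-cycling monocytes, with a log2 fold change of -0.65. The causes of these changes were not tested. With 1 mouse per day, no difference between days could be set against the spread between mice.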
